A study of Mus musculus with 2 samples.

Results

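The genes described here are 6 transcripts of the injured kidney tubule, Havcr1, Lcn2, Spp1, Clu, Il1f6 and Plet1, chosen by name from the 32285 genes of the deposited count tables. Each of the 6 symbols matched 1 gene. They were followed in a droplet single-cell RNA sequencing study of mouse kidney, and the values below say in which droplets their transcripts lay, beside which tubule markers, and how their level differed between the 2 treatments.

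Kidneys came from male C57BL6/J mice of 10 to 12 weeks, 72 h after saline or after cisplatin at 20 mg/kg, a platinum chemotherapy drug that injures the renal tubule. For each treatment 10 kidneys were digested with collagenases and dispase and enriched on magnetic beads, first for CD31 and then for podoplanin, and went into 1 library, so there was no replicate. The cells are labelled lymphatic endothelial cells, and the study's title asks how such cells respond to acute kidney injury. In barcodes of 300 or more unique molecular identifiers (UMIs, 1 per captured transcript), however, the 7 lymphatic endothelial markers searched (Prox1, Lyve1, Mmrn1, Reln, Ccl21a, Flt4 and Pdpn) together held 61 UMIs in saline and 289 in cisplatin, or 45.4 and 38.8 per 1000000 UMIs (CPM), against 62.9 and 40.6 CPM in barcodes of 1 to 100 UMIs.

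Tubule cells that survive a toxic insult switch on a set of secreted and surface proteins, several of which are measured in urine or plasma as signs of kidney damage. Havcr1 (KIM-1) is a surface receptor for phosphatidylserine that injured proximal tubule cells use to take up dying neighbours. Lcn2 (NGAL) binds bacterial siderophores and is made by the injured distal nephron and by neutrophils, Spp1 (osteopontin) is a secreted phosphoprotein that binds integrins and CD44, and Clu (clusterin) is an extracellular chaperone. Il1f6 encodes the cytokine IL-36 alpha, and Plet1 encodes a surface protein of some epithelial cells.

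By GENCODE release M21 (GRCm38), Havcr1 (ENSMUSG00000040405) is at chr11:46735080-46779578 on the plus strand and Lcn2 (ENSMUSG00000026822) at chr2:32384633-32388252 on the minus strand. Spp1 (ENSMUSG00000029304) is at chr5:104435118-104441050 and Clu (ENSMUSG00000022037) at chr14:65968483-65981547, both on the plus strand. Il1f6 (ENSMUSG00000026984) is at chr2:24215418-24225702 and Plet1 (ENSMUSG00000032068) at chr9:50494525-50505482, both on the plus strand. Spp1 and Plet1 are each overlapped by another annotated gene. Gm42793, on the same strand as Spp1, is not among the genes of the count tables and could not be counted. Plet1os, on the strand opposite Plet1, held 2 UMIs in saline and 9 in cisplatin in barcodes of 300 or more UMIs.

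The RefSeq promoter table (GRCm38.p6) holds entries for Havcr1, Lcn2, Spp1 and Plet1. The 250 bases before the start are shown for the first Spp1 entry and for Plet1, the windows that hold a match to a motif searched, and both lie outside annotated exons. Capitals mark matches to the AP-1 letters TGANTCA, the STAT letters TTCNNNGAA or the TATA letters TATAAA, searched on both strands. The Spp1 window (chr5:104434861-104435110, plus strand) holds TATAAA beginning 211 bases before the start. The Plet1 window (chr9:50494275-50494524, plus strand) holds an AP-1 match beginning 144 bases and TATAAA beginning 30 bases before the start.
Spp1: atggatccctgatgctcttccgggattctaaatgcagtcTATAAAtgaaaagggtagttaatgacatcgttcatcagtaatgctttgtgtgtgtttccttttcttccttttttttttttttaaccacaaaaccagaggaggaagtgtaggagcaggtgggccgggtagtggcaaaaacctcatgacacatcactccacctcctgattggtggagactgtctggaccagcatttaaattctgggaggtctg
Plet1: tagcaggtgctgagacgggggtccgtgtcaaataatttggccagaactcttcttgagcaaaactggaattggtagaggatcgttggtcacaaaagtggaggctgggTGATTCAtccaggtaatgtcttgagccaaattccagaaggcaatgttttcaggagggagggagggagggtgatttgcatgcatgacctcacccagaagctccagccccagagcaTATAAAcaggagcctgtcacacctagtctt
Of 32851 RefSeq windows of this length, 6.75% hold the AP-1 letters, 7.02% the STAT letters and 12.4% TATAAA. The Havcr1 and Lcn2 windows, and the second Spp1 entry, hold none of the 3. A match in letters is a description and was not tied to any factor here.

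The libraries differed in depth, mitochondrial share and cell content, and these values bear on all that follows. Saline held 5879496 UMIs and cisplatin 19994105, of which 22.8% and 37.2% lay in 1196 and 11432 barcodes of 300 or more UMIs, with medians of 516.5 and 400 UMIs. The median mitochondrial share of these barcodes was 1.85% in saline and 35.7% in cisplatin, and 70.6% of the cisplatin barcodes exceeded 20%. The 12 blood endothelial markers summed to 7680 CPM in saline and 2377 in cisplatin, the 15 proximal tubule markers to 3689 and 6495, and the 27 distal markers (thick ascending limb, distal convoluted and connecting tubule, and collecting duct) to 1474 and 2740. In each library 6 barcodes of 300 or more UMIs had the sequence of a barcode of the other. They held 3 UMIs of the injury genes in saline and 2 in cisplatin. With 1 library a group no test was possible, and every interval is a 95% interval for counting error only.

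In barcodes of 300 or more UMIs, 4 of the 6 genes were higher in cisplatin by at least the 2-fold used as a call, and none was lower. Among all 13042 genes with 20 or more UMIs in these barcodes, 16.7% were called higher and 17.2% lower. The 6 genes were chosen with earlier results of these data known, so their count beside these shares is a description. The median log2 ratio was 4.97 over the 6 genes (4.10 with Il1f6 at its lower bound) and -0.17 over all genes tested. Havcr1 held 1 UMI in saline (0.745 CPM) and 204 in cisplatin (27.4 CPM), which gives a ratio of 36.8 (interval 6.54 to 1462). Lcn2 held 1 UMI in saline (0.745 CPM) and 2599 in cisplatin (349 CPM), which gives a ratio of 469 (84.1 to 18538). Both genes were thus nearly absent from the saline barcodes, so the size of their ratios rests on a single saline UMI each.

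Spp1 was the most abundant of the 6, with 85 UMIs (63.3 CPM) in saline and 18837 (2532 CPM) in cisplatin, and its ratio was 40.0 (32.3 to 50.1). Il1f6 had 0 UMIs in saline and 198 in cisplatin (26.6 CPM), which is at least 11.9-fold higher against a floor of 3 UMIs. Clu, with 194 UMIs (144 CPM) in saline and 1763 (237 CPM) in cisplatin, gave 1.64 (1.41 to 1.91) and was not called. Plet1, with 26 UMIs (19.4 CPM) and 207 (27.8 CPM), gave 1.44 (0.953 to 2.25), an interval that includes 1. With mitochondrial UMIs left out of the totals, Clu gave 2.30 and Plet1 2.01, and 6 of 6 genes were called higher. The part of the differing endothelial and tubule marker content in these ratios was not tested.

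The shallowest barcodes, of 1 to 100 UMIs, are taken here as droplets that held no cell and sampled free RNA. They numbered 197491 in saline (3703779 UMIs) and 376309 in cisplatin (2140605 UMIs). Havcr1 held 1 UMI there in saline (0.270 CPM) and 118 in cisplatin (55.1 CPM), which gives a ratio of 204 (35.9 to 8132). Lcn2 held 6 UMIs in saline (1.62 CPM) and 342 in cisplatin (160 CPM), which gives a ratio of 98.6 (44.8 to 271). Spp1 held 340 UMIs (91.8 CPM) and 3354 (1567 CPM), which gives a ratio of 17.1 (15.3 to 19.1). The shallow barcodes of cisplatin thus held all 3 of these injury transcripts at a far higher level than those of saline, as the deeper barcodes did.

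Clu was also called higher in the shallow barcodes, with 277 UMIs (74.8 CPM) in saline, 480 (224 CPM) in cisplatin and a ratio of 3.0 (2.58 to 3.49). Plet1, with 63 UMIs (17.0 CPM) and 42 (19.6 CPM), gave 1.15 (0.761 to 1.73). Il1f6, with 0 and 4 UMIs, had fewer than the 20 UMIs needed for a call, and in the range of 1 to 50 UMIs Havcr1 did too, with 0 and 18. So 4 of the 5 genes tested were called higher and none lower, where 7.22% of 12375 genes were called higher and 11.4% lower. The median log2 ratio was 4.09 over the 5 and -0.07 over all. The depth of the shallow barcodes itself differed between libraries, since those of 31 to 100 UMIs held 2839816 of the saline UMIs and 1709380 of the cisplatin UMIs, and those of 1 to 10 UMIs 124822 and 420370. Barcodes of 101 to 299 UMIs, in neither range, held 832756 of the 5879496 saline UMIs (5431 barcodes). In cisplatin they held 10414175 of 19994105 (61606 barcodes). Whether droplets without a cell reached beyond 100 or 300 UMIs in cisplatin was not tested, so the 2 ranges may not separate them alike in both libraries.

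**Figure D1:**
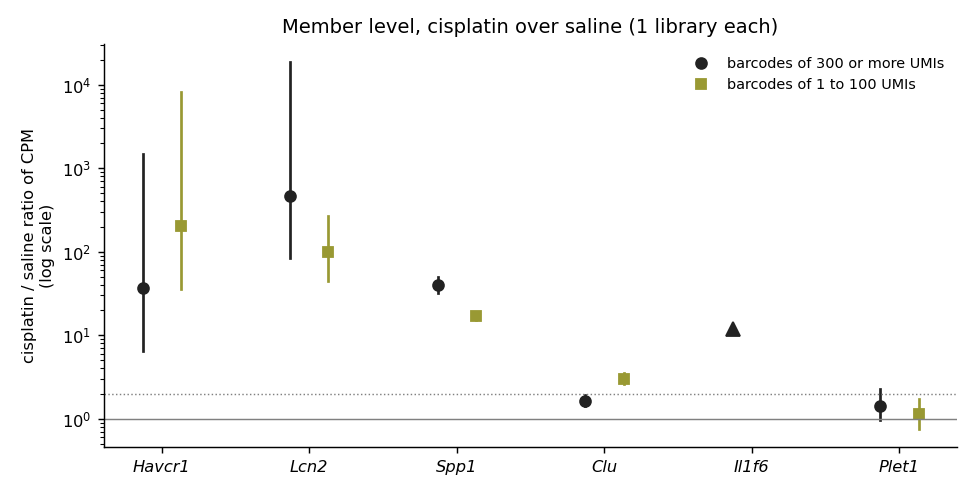
Ratio of the level (CPM of summed UMIs) in the cisplatin library to that in the saline library, on a log scale, for the 6 genes in barcodes of 300 or more UMIs (circles) and of 1 to 100 UMIs (squares); bars are 95% counting intervals, the triangle is the lower bound of Il1f6 against 3 UMIs, the solid line is 1 and the dotted line 2. Havcr1, Lcn2 and Spp1 lie above 10 in both depth ranges, and Clu is farther above 1 in the shallow barcodes (3.0) than in the deeper ones (1.64).

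Setting the deeper barcodes of a library against its own shallow ones shows whether a transcript was enriched in barcodes that may hold a cell. In cisplatin, Il1f6 was 14.2-fold (5.48 to 52.8) and Lcn2 2.19-fold (1.95 to 2.45) higher in barcodes of 300 or more UMIs than in those of 1 to 100. Havcr1 was lower, at 0.497 of its shallow level (0.395 to 0.629). Spp1 (1.62), Plet1 (1.42) and Clu (1.06) were not called. That is 2 higher and 1 lower of 6, where 4.49% of 13224 genes were called higher and 3.24% lower. In saline, Clu stood at 1.93 (1.60 to 2.33), Plet1 at 1.14 and Spp1 at 0.689, with 0 of these 3 tested genes called, where 19.2% of 12000 genes were called higher and 21.8% lower.

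Both higher calls in cisplatin depended on a few very deep barcodes. Without the 20 deepest barcodes of each library, a setting added after the data were seen, Lcn2 stood at 0.887, Il1f6 at 0.886 (11 UMIs), Plet1 at 0.890, Clu at 0.737, Havcr1 at 0.549 and Spp1 at 1.01, and none was called in cisplatin. In saline, the same setting put Clu at 2.26, a higher call, and Plet1 at 0.384, a lower call on 7 UMIs. The ratios between the libraries moved as well. Spp1 gave 19.9, Lcn2 at least 50.7-fold (its only saline UMI lay in one of those barcodes), Clu 0.980 and Plet1 2.68, now called, while Il1f6 no longer had 20 UMIs. Spp1 in turn gave 77.3 in barcodes of 1000 or more UMIs.

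By depth of the barcode, Havcr1 in cisplatin had 30.9 CPM at 1 to 10 UMIs, 60.8 at 31 to 100, 43.3 at 101 to 299, 32.4 at 300 to 499, 42.8 at 500 to 999, 24.8 at 1000 to 1999 and 8.18 at 2000 or more. Spp1 followed another course, with 1679 CPM at 31 to 100 UMIs, 838 at 500 to 999 and 6585 at 2000 or more. Lcn2 had 166 CPM at 31 to 100 UMIs, 93.0 at 500 to 999 and 993 at 2000 or more. So the deepest class of 268 barcodes was the poorest in Havcr1 and the richest in Lcn2, Spp1, Clu (450 CPM) and Il1f6 (91.0 CPM).

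**Figure D2:**
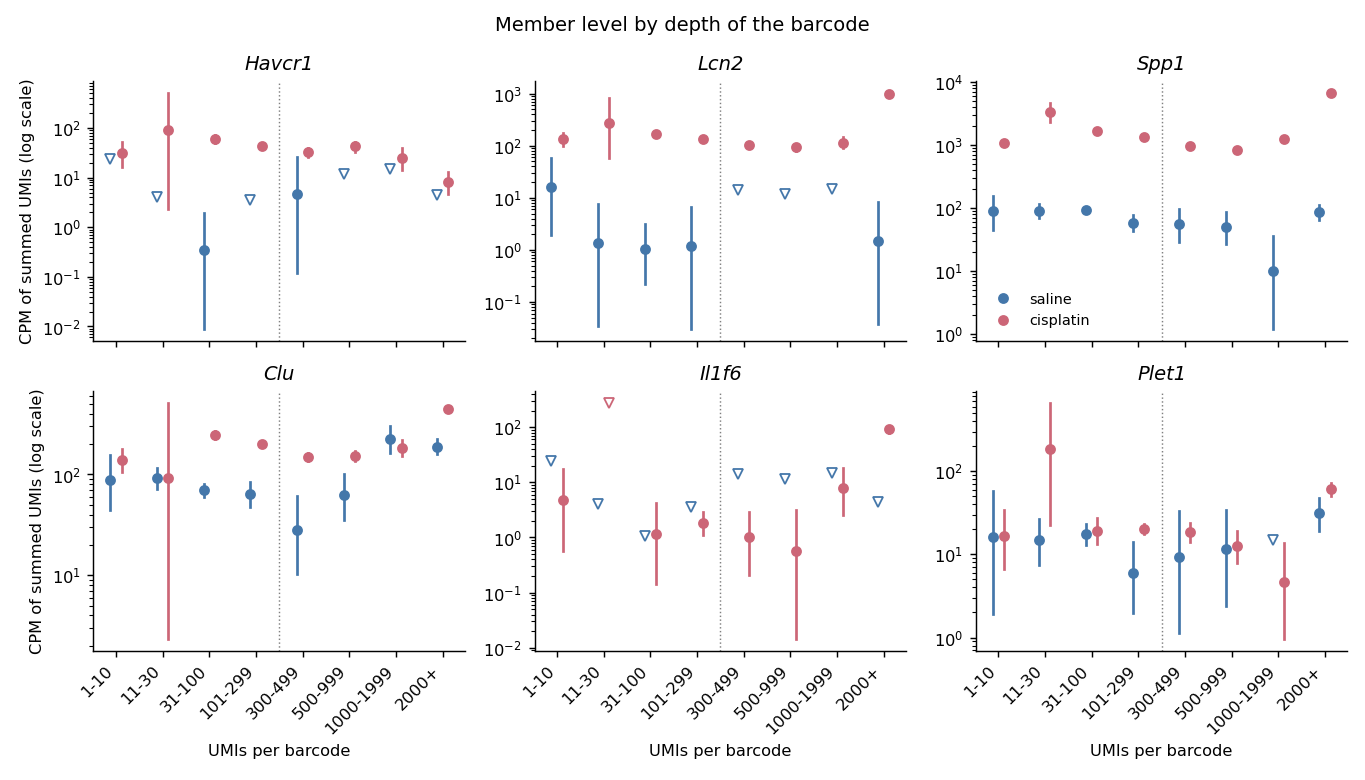
Level of each gene (CPM of summed UMIs, log scale) by the number of UMIs in the barcode, in saline (blue) and cisplatin (red); bars are 95% counting intervals, open triangles are the level that 3 UMIs would give where none was found, and the dotted line marks 300 UMIs. Cisplatin lies above saline at every depth for Spp1, and Havcr1 is lowest (8.18 CPM in cisplatin) where Lcn2, Spp1, Clu and Il1f6 are highest.

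Havcr1 UMIs were spread thinly over barcodes. Of the 204 Havcr1 UMIs in cisplatin barcodes of 300 or more UMIs, 170 were the only one in their barcode and no barcode held more than 3. The 10 richest barcodes held 10.8% of them. For Lcn2 a single barcode held 1298 of 2599 UMIs (49.9%) and the 10 richest 74.7%, while 465 barcodes held 1 UMI. For Spp1 the richest barcode held 3471 UMIs (18.4%) and the 10 richest 62.9%, and 2492 barcodes held 1. These 2 genes thus had a few rich barcodes on top of a broad scatter of single UMIs.

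Il1f6 was the most concentrated, with 187 of 198 UMIs (94.4%) in 1 barcode and the other 11 in 7 barcodes. Clu had 264 UMIs (15.0%) in its richest barcode and 42.4% in its 10 richest, and Plet1 61 UMIs (29.5%) and 48.8%. Barcodes with 10 or more UMIs of a gene numbered 53 for Spp1, 14 each for Lcn2 and Clu, 2 for Plet1, 1 for Il1f6 and 0 for Havcr1.

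**Figure D3:**
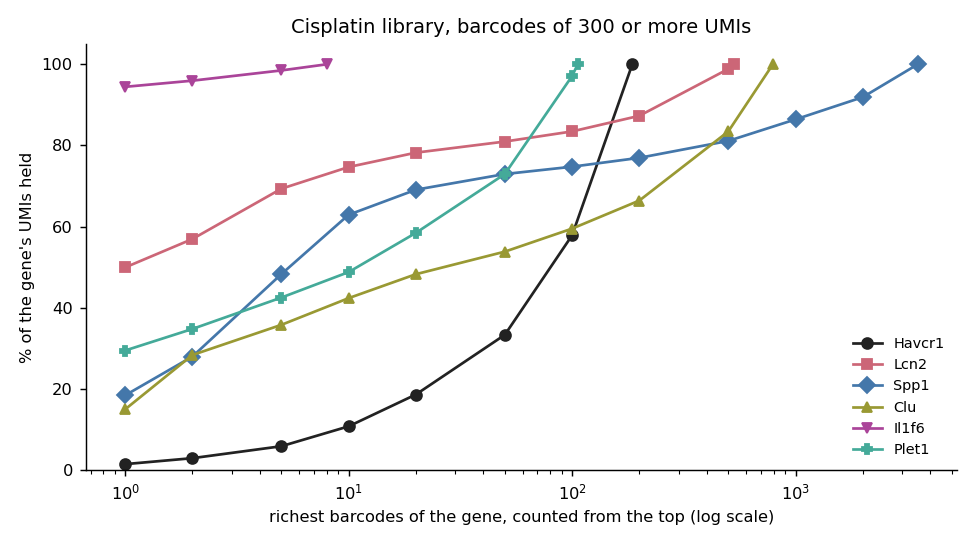
Share of each gene's UMIs held by its richest barcodes in the cisplatin library, counted from the top on a log axis, among barcodes of 300 or more UMIs. The 10 richest barcodes hold 10.8% of the Havcr1 UMIs, 42.4% for Clu, 48.8% for Plet1, 62.9% for Spp1 and 74.7% for Lcn2, and all Il1f6 UMIs lie in 8 barcodes.

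The richest barcode was the same for Lcn2, Spp1, Clu and Il1f6. It had 91183 UMIs, 15.5% of them mitochondrial, with 1298 Lcn2, 3471 Spp1, 264 Clu, 187 Il1f6, 3 Havcr1 and 1 Plet1 UMIs, so it held all 6 genes. It also held 108 UMIs of distal convoluted and connecting tubule markers and 42 of thick ascending limb markers, against 3 of proximal tubule, 2 of principal cell and 2 of blood endothelial markers. Several barcodes with thick ascending limb markers came next. One of 43809 UMIs held 1720 Spp1 and 144 Lcn2 UMIs beside 303 of thick limb markers, one of 17322 UMIs held 1123 Spp1 and 182 Lcn2 beside 80, and one of 8835 UMIs held 983 Spp1 and 25 Lcn2 beside 64.

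Other rich barcodes had markers of other segments. One of 29378 UMIs held 236 Clu, 621 Spp1 and 67 Lcn2 UMIs beside 629 of distal convoluted and connecting tubule markers. One of 37855 UMIs held 351 Spp1 and 11 Plet1 beside 105 of thin limb markers. One of 46109 UMIs held 61 Plet1, 13 Lcn2 and 4 Spp1 beside 794 of principal cell markers. One barcode of 35167 UMIs, with 1799 Spp1 and 111 Lcn2 UMIs, mixed 140 thick limb, 71 distal convoluted and connecting tubule and 97 pericyte and fibroblast marker UMIs, and the deepest barcode of all (116215 UMIs) mixed endothelial, distal and principal cell markers and held 155 Spp1, 44 Clu and 9 Lcn2. No doublet caller was run, so barcodes of more than 1 cell were not removed.

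Saline had 2 barcodes with 20 or more UMIs of the 6 genes. One of 2924 UMIs held 47 of the 85 Spp1 UMIs and 3 UMIs of thin limb markers. The other, of 15630 UMIs, held 19 of the 26 Plet1 UMIs, the only Lcn2 UMI and 1 Clu UMI beside 399 of principal cell markers. In each library the barcode richest in Plet1 thus had principal cell markers, which is 1 barcode a library. Clu in saline was spread differently, with at most 8 UMIs in a barcode over 77 barcodes.

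Barcodes with strong marker content, set after the data were seen as 10 or more UMIs of a marker list at 3 or more times its shallow level, give the genes' levels by segment in cisplatin. The 35 thick ascending limb barcodes (median 2305 UMIs) had 24858 CPM of Spp1, found in 31 of them, and 2049 CPM of Lcn2, found in 11. Among the 46 barcodes of distal convoluted and connecting tubule markers (median 890.5 UMIs), Spp1 had 19402 CPM in 31, Clu 2657 CPM in 17 and Lcn2 1089 CPM in 7. The 8 principal cell barcodes (median 3171.5 UMIs) had 372 CPM of Plet1, found in 3 with 61 of its 66 UMIs in 1, 591 of Clu and 310 of Lcn2. The mixed barcode of 116215 UMIs is among them, with most of their 177633 UMIs and 44 of their 105 Clu UMIs. Another, of 2072 UMIs, gave 57 of the Clu and 32 of the 55 Lcn2 UMIs. Among the 7 thin limb barcodes (median 10700 UMIs), Plet1 was found in 6 (238 CPM) and Spp1 in 6 (4365 CPM). These summed levels rest on a few barcodes each. The median barcode had 2373 CPM of Spp1 among the thick limb and 1187 among the distal tubule barcodes, and 0 of Lcn2 and of Clu in both sets. A single barcode gave 182 of the 395 thick limb Lcn2 UMIs and another 144, and 1 gave 236 of the 305 Clu UMIs of the distal tubule barcodes.

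The 33 barcodes with strong proximal tubule content were shallow (median 363 UMIs, 13552 in all). Of the injury genes they held 14 UMIs of Spp1 (1033 CPM), 3 of Havcr1, 2 of Clu, 1 of Lcn2 and 1 of Plet1. Their 3 Havcr1 UMIs, from 3 barcodes, make 221 CPM, the highest Havcr1 level of these cisplatin sets. Havcr1 was found in 9.09% (1.92 to 24.3%) of them, against 1.59% (1.36 to 1.84%) of barcodes with no strong marker content. The shallow cisplatin barcodes had 55.1 CPM of Havcr1. Barcodes with no strong marker content (11084) held 194 of the 204 Havcr1 UMIs (95.1%), 72.0% of Lcn2 with the richest barcode among them, and 47.0% of Spp1. For comparison, the 111 endothelial barcodes of cisplatin (median 3120 UMIs) had 177 CPM of Spp1, 144 of Clu, 21.1 of Lcn2 and 3.24 of Havcr1. The 69 macrophage barcodes had 136 CPM of Spp1. The 27 pericyte and fibroblast barcodes had 11881 CPM of Spp1 and 712 of Lcn2. The mixed barcode of 35167 UMIs gave 1799 of their 1903 Spp1 and 111 of their 114 Lcn2 UMIs. The 1 urothelial barcode had 5643 CPM of Spp1. In saline the 277 endothelial barcodes held 122 of the 194 Clu UMIs (62.9%, 202 CPM), 2 Spp1, 2 Plet1, and 0 of Havcr1, Lcn2 and Il1f6.

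Shares of barcodes with at least 1 UMI differed from the levels, since a single UMI of free RNA counts as much as a rich barcode. In cisplatin, Spp1 was found in 3525 of 11432 barcodes (30.8%, exact binomial interval 29.99 to 31.7%), Clu in 792 (6.93%), Lcn2 in 530 (4.64%), Havcr1 in 186 (1.63%), Plet1 in 106 (0.927%) and Il1f6 in 8 (0.0700%). In saline, of 1196 barcodes Clu was found in 77 (6.44%), Spp1 in 32 (2.68%), Plet1 in 8 (0.669%), Havcr1 and Lcn2 in 1 each (0.0836%) and Il1f6 in 0, which at a floor of 3 counts allows a share of barcodes with a UMI of up to 0.251%. The intervals of the 2 libraries lay apart for Havcr1, Lcn2 and Spp1. After each barcode was thinned to 300 UMIs, Clu was found in 4.33% (3.96 to 4.72%) of cisplatin and 2.09% (1.36 to 3.07%) of saline barcodes, so 4 genes lay apart.

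Blood endothelial-like barcodes, which should lack the tubule genes, give the background of these shares. In cisplatin, 213 such barcodes (median 744 UMIs) held Spp1 in 29.6%, Lcn2 in 6.57% and Havcr1 in 1.41%, close to the 30.9%, 4.60% and 1.63% of the other 11219 barcodes (median 399 UMIs). These shares of barcodes with a UMI, compared at unequal depth, are not read as expression. Thinned to 300 UMIs, Spp1 was found in 6.10% (3.29 to 10.2%) of the endothelial-like and 21.9% (21.1 to 22.6%) of the other barcodes, so the intervals lay apart. The Spp1 level as deposited was 202 CPM in the endothelial-like and 2796 CPM in the other barcodes. Thinning a deeper barcode also thins the free RNA in it. The thinned Spp1 level of the other barcodes (1008 CPM) was below the 1567 CPM of the shallow ones. The part of free RNA in this Spp1 difference was not tested. The thinned shares of Havcr1 (0.939% and 0.954%), Lcn2 (1.41% and 2.84%) and Clu (3.76% and 4.34%) had overlapping intervals, with 2, 3 and 8 endothelial-like barcodes behind them. In saline, Clu was found in 11.6% of 536 endothelial-like barcodes (median 910 UMIs) and 2.27% of the other 660 (median 402), and in 3.17% (1.86 to 5.03%) and 1.21% (0.525 to 2.37%) after thinning, where the intervals overlapped.

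Detection in cisplatin differed by the mitochondrial share of a barcode. Havcr1 was found in 2.82% of the 390 barcodes with under 5% mitochondrial UMIs and in 2.47% of the 2956 with 5 to 20%. It was found in 1.73% of the 4323 with 20 to 50% and in 0.718% of the 3763 above 50%. The Havcr1 level did not follow these shares, at 15.0, 32.2, 38.3 and 15.5 CPM in the same order. With mitochondrial UMIs left out of the totals it was 15.5, 36.4, 57.6 and 47.0 CPM. By level the class under 5% was thus the lowest, on 15 Havcr1 UMIs. Spp1 was found in 31.3%, 36.9%, 32.3% and 24.3% of the same classes, and Lcn2 in 6.41%, 6.83%, 4.14% and 3.30%, so these 2 were not most frequent in the lowest class. The median depth of the classes was 679, 494, 376 and 383 UMIs. A limit of 20%, common for cells, would have left out 8076 cisplatin barcodes, and with it the ratio between libraries was 36.4 for Havcr1 (36.8 without the limit) and 776 for Lcn2 (469 without it).

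Co-detection with tubule markers was read by splitting the barcodes of 300 or more UMIs by at least 2 UMIs of the proximal list and of the distal list. In cisplatin, 6525 barcodes had proximal markers only, 2061 both, 447 distal only and 2399 neither (medians of 399, 511, 394 and 363 UMIs). Of the Lcn2 UMIs, 81.1% lay in barcodes with both sets, and so did 72.6% of Spp1, 58.0% of Clu and 96.0% of Il1f6. The richest barcode, with 3 UMIs of proximal markers, put 1298 Lcn2 and 187 Il1f6 UMIs there. With every barcode thinned to 300 UMIs, 8.26% of Lcn2, 9.73% of Spp1, 13.4% of Clu and 0 of 6 Il1f6 UMIs lay in barcodes with both, and 51.9%, 49.8% and 49.3% of the first 3 in barcodes with proximal markers only. For Havcr1, 49.0% lay in barcodes with proximal markers only and 32.4% in those with both.

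As levels, Havcr1 had 30.3 CPM in proximal only, 24.5 in both, 32.7 in distal only and 24.5 in neither. Spp1 was at 817 CPM in proximal only and 684 in neither, but at 5074 in both and 5536 in distal only. Lcn2 was at 90.7 and 67.3 CPM in the first pair and at 783 and 376 in the second, and Clu at 128 in each of the first pair and at 380 and 556 in the second. These levels weight a deep barcode by all its UMIs. With every barcode thinned to 300 UMIs, Lcn2 had 99.1 CPM in proximal only, 103 in both, 191 in distal only and 95.6 in neither, and Spp1 925, 1180, 2488 and 866. Havcr1 had 32.7, 42.6, 46.2 and 31.02 CPM, from 7 UMIs in the distal only class.

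**Figure D4:**
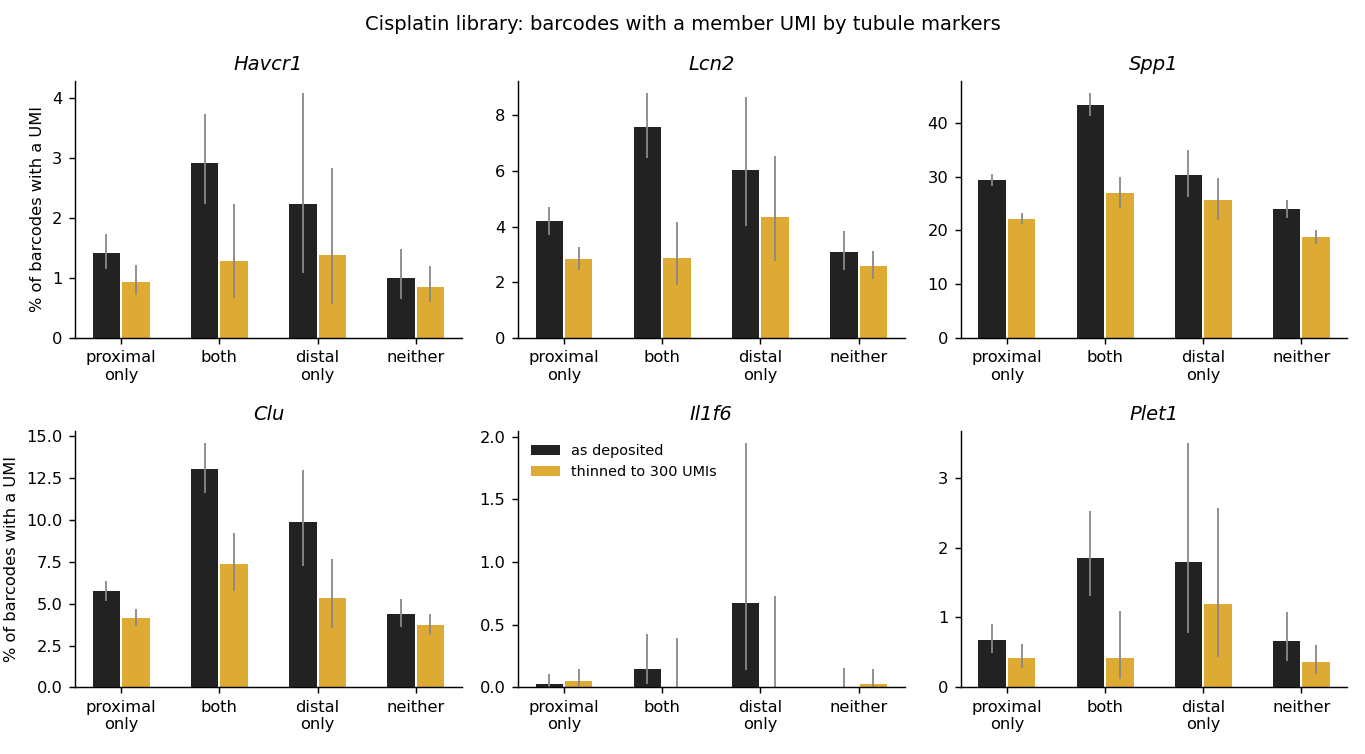
Share of cisplatin barcodes of 300 or more UMIs with at least 1 UMI of each gene, by presence of proximal and distal tubule markers (2 or more UMIs of a list), for the counts as deposited (black) and after each barcode was thinned to 300 UMIs, markers included (yellow); bars start at 0, lines are exact 95% binomial intervals, and the vertical scales differ. The excess in barcodes with both marker sets (43.4% for Spp1, 13.1% for Clu) shrinks on thinning to 27.1% and 7.36%.

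As shares, barcodes holding any of the 6 genes carried distal markers more often than those without it. Distal markers were present in 37.6% (30.7 to 45.02%) of the Havcr1 barcodes and 21.7% of the others, in 34.5% and 21.3% for Lcn2, in 29.2% and 18.7% for Spp1, and in 39.5% and 20.6% for Clu. For Plet1 it was 43.4% and 21.7%, and for Il1f6 6 of 8 barcodes and 21.9%. The intervals of holders and others lay apart for all 6. Thinned to 300 UMIs, they lay apart for Spp1 (15.6% and 11.8%) and Clu (19.4% and 12.3%) but overlapped for Havcr1 (17.4% and 12.6%), Lcn2 (15.2% and 12.5%), Plet1 (20.0% and 12.6%) and Il1f6 (0 of 4 and 12.6%). Barcodes with a UMI of any of the 6 were deeper than those without it (for Havcr1 a median of 517 against 399 UMIs), and deeper barcodes hold more of any marker.

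Proximal markers were so frequent that they separated little. They were present in 81.7% (75.4 to 87.0%) of the Havcr1 barcodes and 75.0% of the others, with overlapping intervals, and in 80.9% and 74.8% for Lcn2, 79.8% and 73.0% for Spp1 and 81.2% and 74.7% for Clu, whose intervals lay apart. After thinning only Spp1 stayed apart (65.3% and 60.8%). By density of marker UMIs the order turned. Proximal markers made up 3191 CPM in Lcn2 barcodes and 7045 in barcodes without Lcn2, and 5413 and 6532 CPM for Havcr1. Distal markers made up 6351 and 2138 CPM for Lcn2, but 1965 and 2766 for Havcr1. These densities weight a deep barcode by all its UMIs. The barcode of 91183 UMIs, with 3 of proximal markers, is among the Havcr1 and the Lcn2 barcodes. The mixed barcode of 116215 UMIs is among the Lcn2 barcodes. Summed in this way, Havcr1 barcodes were poorer in both marker sets and Lcn2 barcodes richer in distal ones, which does not describe the typical barcode with either gene.

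In saline, where Havcr1, Lcn2 and Il1f6 had too few UMIs, 28 of the 32 Spp1 barcodes carried proximal markers (87.5%, 71.0 to 96.5%) against 59.5% of the others, and 16 of 32 carried distal markers (31.9 to 68.1%) against 30.8% (28.1 to 33.5%), with overlapping intervals. Thinned to 300 UMIs, 10 of 17 Spp1 barcodes had proximal markers (58.8% against 48.9%) and 2 of 17 distal markers (11.8% against 20.1%), again with overlapping intervals. Clu barcodes went the other way, with proximal markers in 35.1% against 61.9% of the others and distal markers in 20.8% against 32.0%. Clu in the saline library was thus detected mostly apart from tubule markers.

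Barcodes holding one of Lcn2, Spp1 and Clu held another of these more often than barcodes without it, also at equal depth. Of 530 Lcn2 barcodes in cisplatin, 241 (45.5%) held Spp1 too, against 30.1% of the rest, and after thinning 29.8% (24.9 to 35.1%) against 21.3% (20.6 to 22.1%). Lcn2 and Clu were found together in 17.5% of Lcn2 barcodes against 6.41%, and after thinning in 7.76% (5.09 to 11.2%) against 4.23%. Spp1 was found in 45.1% of Clu barcodes against 29.8%, and after thinning in 27.1% (23.2 to 31.2%) against 21.3%. Havcr1 and Lcn2 shared 11 of 186 Havcr1 barcodes (5.91%, 2.99 to 10.3%), against 4.61% of the rest, and 1 of 109 after thinning. Havcr1 and Spp1 shared 43.5%, against 30.6%, and 28.4% (20.2 to 37.9%) against 21.5% after thinning, where the intervals overlapped.

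Clustering of the barcodes of both libraries, made without the 6 genes and the other injury genes, placed the largest share of the cisplatin UMIs of 5 of the 6 in 1 cluster. Cluster 11 (184 cisplatin barcodes, median 817.5 UMIs, and 7 saline barcodes) had all 7 principal cell markers, 5 of distal convoluted and connecting tubule and 4 of thick ascending limb among its raised genes, and stayed unnamed for that mixture. It held 79.3% of the cisplatin Lcn2 UMIs (2411 CPM), 73.0% of Spp1 (16095 CPM), 45.9% of Clu (947 CPM), 60.4% of Plet1 (146 CPM) and 98.5% of Il1f6 (228 CPM). The barcode of 91183 UMIs lay in cluster 11. It gave 1298 of the cluster's 2061 Lcn2 UMIs, 187 of 195 Il1f6, 264 of 809 Clu and 3471 of 13756 Spp1 UMIs. Only 41 of the cluster 11 barcodes of cisplatin held Lcn2 (22.3%), while 124 held Spp1 (67.4%). The 7 saline barcodes of cluster 11 held 57 of the 85 saline Spp1 UMIs and 19 of the 26 Plet1 UMIs, on which no level was compared between libraries.

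Havcr1 had 9 UMIs in cluster 11 (4.41%, 10.53 CPM) and 106 in cluster 1 (52.0%, 47.5 CPM), an unnamed cluster of 3524 cisplatin barcodes with the proximal markers Lrp2, Slc27a2 and Fbp1 raised and a median mitochondrial share of 18.9%. Havcr1 was detected in 2.67% (2.16 to 3.25%) of cluster 1 barcodes, against 0.990% (0.614 to 1.51%) in cluster 2 and 1.25% (0.796 to 1.87%) in cluster 3, whose medians were 369 and 357 UMIs against 501. The level in cluster 1 was below the 55.1 CPM of the shallow cisplatin barcodes. Other cisplatin clusters lay between 1.52 CPM (cluster 10) and 75.9 CPM (unnamed cluster 13, on 2 UMIs), with macrophage-like cluster 9 at 42.3 on 6 UMIs. The levels thus do not set cluster 1 apart from free RNA. The Havcr1 share in the leading cluster depended on how finely the barcodes were divided. With coarser clusters it was 87.3% in one of 9979 barcodes and with finer ones 26.5% in one of 1380, while that of Spp1 was 74.2% and 72.1%. Outside cluster 11, Spp1 lay between 144 and 1078 CPM and Lcn2 between 13.7 and 152 CPM in the cisplatin clusters, endothelial-like and podocyte-like ones included. In saline, 164 of the 194 Clu UMIs lay in blood endothelial-like cluster 10 (138 barcodes, 245 CPM), where 71 cisplatin barcodes had 167 CPM.

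**Figure D5:**
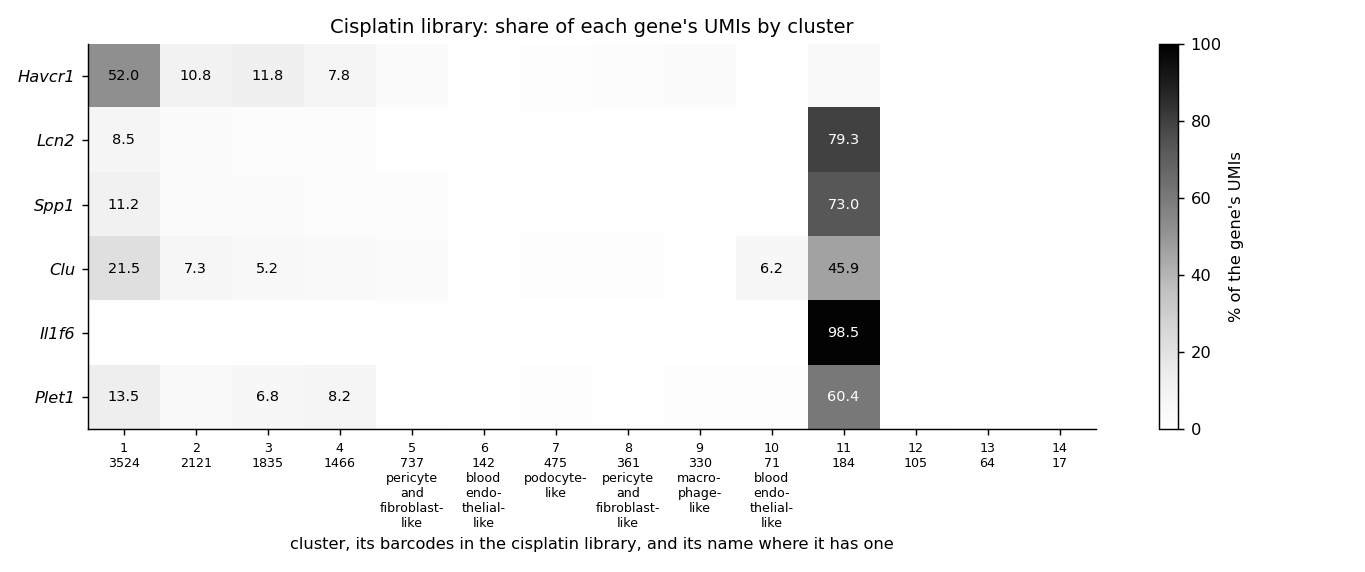
Share of each gene's cisplatin UMIs (barcodes of 300 or more UMIs) in each of 14 clusters, with the number of cisplatin barcodes and the name under each cluster; shares of 5% or more are printed and each gene sums to 100%. Cluster 11, with 184 barcodes, holds most of the Lcn2, Spp1, Il1f6 and Plet1 UMIs, and cluster 1 most of the Havcr1 UMIs. A single barcode gives 1298 of the 2061 Lcn2 and 187 of the 195 Il1f6 UMIs of cluster 11.

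Lcn2 is also a neutrophil granule gene, and 10 neutrophil markers were followed beside it. They summed to 10 UMIs in saline and 859 in cisplatin, 759 of which lay in 1 barcode of 4788 UMIs. That barcode held 3 Lcn2 UMIs. All other cisplatin barcodes of 300 or more UMIs, with or without Lcn2, held 100 neutrophil marker UMIs and 2596 Lcn2 UMIs. Leaving out the neutrophil barcode thus took away 3 of the 2599 Lcn2 UMIs. In the shallow barcodes the neutrophil markers held 28 UMIs in saline (7.56 CPM) and 80 in cisplatin (37.4 CPM). The part of neutrophils in the free Lcn2 RNA was not tested.

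The genes whose level followed each of the 6 most closely were sought over 24 pools, 10 of saline and 14 of cisplatin, each the summed UMIs of a cluster in a library. These pools share 2 libraries and differ widely in depth, so the correlations are a description. The gene nearest to Lcn2 among 6319 was Spp1 (Pearson r = 0.879), followed by the potassium channel gene Kcnk1 (0.866) and the metallothionein Mt2 (0.843), and Spp1 was nearest to Lcn2, Kcnk1 (0.850) and the epithelial secreted protein gene Wfdc2 (0.848). Plet1 went with the epithelial genes Rnf128 (0.920), St14 (0.897), the keratin Krt8 (0.842) and desmoplakin (Dsp, 0.817). Havcr1 went with Psrc1 (0.879), Cgref1 (0.873) and the mitochondrial genes mt-Nd2 (0.871) and mt-Co3 (0.862). Clu went with the mitochondrial enzyme genes Ndufv2 (0.878), Sdha (0.869), Acadsb (0.858) and Mdh2 (0.854). For Il1f6, whose UMIs lay nearly all in 1 barcode, the highest values were Sostdc1 (0.770) and the TWEAK receptor Tnfrsf12a (0.717).

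A further list of 44 kidney injury genes had 41 genes with enough UMIs in barcodes of 300 or more. Of these 26 were called higher in cisplatin, 6 lower and 9 neither, with a median log2 ratio of 1.5 (1.28 with genes at 0 UMIs at their bound) against -0.17 for all genes. Lgals3 (galectin-3) stood at 12 saline and 973 cisplatin UMIs, or 14.6-fold (8.34 to 28.4), the stress cytokine Gdf15 4 and 312 (14.1, 5.44 to 52.0), Krt8 13 and 526 (7.30, 4.23 to 13.8) and complement C3 1 and 194 (35.0, 6.21 to 1390). Krt20 and fibrinogen Fga had 0 UMIs in saline and 114 and 87 in cisplatin, at least 6.86-fold and 5.24-fold higher. Among the lower ones were Vim (0.0950), S100a6 (0.135), Cst3 (0.205) and Anxa2 (0.262), genes that endothelial and other stromal cells also express. The summed endothelial markers stood at 7680 CPM in saline and 2377 in cisplatin, and their part in these lower calls was not tested.

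In the shallow barcodes 40 genes of that list could be tested, of which 24 were called higher, 1 lower (Vim, 0.337) and 15 neither, with a median of 1.29 against -0.07. S100a6 (1.05), Anxa2 (1.09) and Cst3 (0.718) were not called there. Lgals3 gave 13.1 and Gdf15 8.65. Within cisplatin, 3 of 42 tested list genes were called higher and 2 lower in the deeper than in the shallow barcodes, near the 4.49% and 3.24% of all genes. More than the share of all genes were thus called higher after cisplatin in each depth range, as with Havcr1, Lcn2 and Spp1.

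Receptors and binding partners of the 6 proteins made up a list of 18, of which 12 had enough UMIs in barcodes of 300 or more. Of these 5 were called higher, 3 lower and 4 neither, with a median log2 ratio of 0.37, where 16.7% of all genes were called higher and 17.2% lower. Cd44, the surface receptor for hyaluronan and osteopontin, was called at 2.02, with an interval (0.879 to 5.69) that includes 1. The integrin subunit Itgav, through which osteopontin binds cells, had 72 UMIs in saline and 1079 in cisplatin (2.71, 2.13 to 3.48). The lipocalin receptor Slc22a17 gave 3.003 (1.64 to 6.12), Timd2, of the same TIM family as Havcr1, 3.20 (1.58 to 7.57), and the integrin subunits Itga4 2.74 (1.13 to 8.69) and Itgb5 1.54 (1.12 to 2.17), the last not called. Lower were the integrin subunits Itgb1 (0.243), Itga9 (0.306) and Itgb3 (0.388), which in saline stood at 3.69, 2.18 and 4.08 times their own shallow level. Of the higher ones, Itgav stood at 0.192, Itga4 at 0.215, Slc22a17 at 0.394 and Timd2 at 0.401 of their shallow level in saline.

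In the shallow barcodes the order differed. Of 11 tested receptors and partners 3 were called higher, among them Slc22a17 (2.54) and Timd2 (2.33), and 4 lower, with a median log2 ratio of -0.56, where 7.22% of all genes were called higher and 11.4% lower. The lower ones were Lrp2 (megalin, the proximal tubule receptor that takes up filtered proteins, 0.373), Itga4 (0.406), Il1rap (0.455) and Itgb1 (0.469), and Itgav was not called (0.728). Itga4 was thus called in opposite directions in the 2 depth ranges, on 5 saline UMIs in the deeper one.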

How the data were processed

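The authors deposited whole-number UMI counts per gene and barcode for the 2 libraries, made with the Chromium Next GEM Single Cell 3' kit per the labels' protocols. Cell Ranger 6.0.1 and mm10 are named per the submitters' processing notes, while the deposited matrices carry version 4 in their software header, per the file headers. All listed barcodes are in the tables, so free RNA could be measured. No barcode was removed for its mitochondrial share and no doublet caller was run.

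UMIs were summed over barcodes of 300 or more and of 1 to 100 UMIs in each library and scaled per 1000000 UMIs. A gene was called at a ratio of 2 or more, or 0.5 or less, with 20 or more UMIs over both sides. Ratio intervals are exact conditional binomial and shares have exact Clopper-Pearson intervals (95%). UMIs are molecules, yet intervals and the floor of 3 UMIs cover counting error only. With 1 library a group, made from 10 kidneys, differences between animals cannot be seen. Totals were 5879496 UMIs in saline and 19994105 in cisplatin. For equal depth each barcode was thinned to 300 UMIs (seed 1).

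Barcodes were scaled to 10000, logged, reduced to 2000 variable genes, 30 components and 15 neighbours, and clustered with Leiden at resolution 1, without the 6 genes, other injury genes and mitochondrial, ribosomal, haemoglobin and sex-chromosome marker genes. A cluster was named from 3 or more raised markers when 2 of them were among its top 10 genes by fold (or 10 or more were raised) and no other list had over 60% as many. These naming conditions, the marker-rich threshold and the setting without the 20 deepest barcodes were chosen after the data were seen. Likeness is Pearson's r of log2(CPM + 10) over cluster pools of 5000 or more UMIs, for genes of 200 or more UMIs, with the 5 nearest genes taken, of which 1 is not reported here. From each other list the 6 highest and 4 lowest genes, by the interval bound nearest 1, were named. Cd44, Lrp2 and Il1rap were named after their values were seen. The members and lists were chosen with earlier results of these data known.

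Alternatives were other UMI limits, a mitochondrial limit of 20%, other totals, subtraction of free RNA, another call ratio, thinning and other resolutions. Code was tested on simulated data. Tools were Python 3.11.15, numpy 2.4.6, scipy 1.17.1, scikit-learn 1.9.0, igraph 0.11.9, leidenalg 0.10.2 and matplotlib 3.10.9.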

Additional observations from a re-analysis of the deposited data

How the results depend on the processing

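Of 188 values recomputed under other settings, 127 were counted as the same, 58 as moved and 3 as reversed. The same meant within the main interval or, for co-detection, an unchanged separation of holders and others. A ratio against 0 UMIs was always counted as the same, so such values could not move. Without the 20 deepest barcodes of each library, the count of genes called higher in deeper than in shallow cisplatin barcodes was 0 in place of 2, with Lcn2 at 0.887 (from 2.19) and Il1f6 at 0.886 (from 14.2), a setting that removes most of their UMIs. With each barcode thinned to 300 UMIs, 2 genes in place of 6 had holders apart from the others in distal markers and 1 in place of 3 in proximal markers. The Il1f6 difference in distal markers was then -12.6 percentage points (0 of 4 barcodes) in place of 53.1. In barcodes of 500 or more UMIs, 1 gene had holders apart in proximal markers. At a ratio of 1.5, 2 other injury genes in place of 1 were called lower in the shallow barcodes. The cause was not tested for the last 2. Scaling to a median log2 ratio of 0 shifts every log2 ratio by 0.17 in the deeper and 0.07 in the shallow barcodes. Shares of barcodes with a UMI depend on depth, and at a median of 400 UMIs in cisplatin a single UMI of a gene cannot be told from free RNA. No paired analysis was possible because each group has 1 library and the groups share fewer than 2 replicate numbers.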
